A study of Homo sapiens with 12 samples.

Results

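The early response of human embryonic stem cells to loss of OCT4 was read from 6 bead arrays, 3 of OCT4 knockdown cells and 3 of control cells, all harvested at day 2 after transfection. They were taken by their labels from a set of 12 arrays, in which another 6 carry the same groups at day 3. The knockdown cells belonged to H1, a long-established line of human embryonic stem cells, and received 2 µg of an shRNA against OCT4 with 6 µl of Fugene, 1 day after seeding. The control cells, also H1, were given a luciferase shRNA in the same way, whose target gene is absent from the human genome. Both groups therefore share the transfection, the reagent and the time in culture. The stated aim was to find mRNAs targeted by OCT4. The labels name no further OCT4 shRNA, no selection of transfected cells and no other line, so an effect of OCT4 loss and an effect of this shRNA cannot be told apart. They do not say that the replicates were separate cultures, so each p-value reflects only how these arrays spread, and that spread may be technical.

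OCT4, encoded by POU5F1, is a POU-family transcription factor that binds DNA together with SOX2 and, with NANOG, holds embryonic stem cells in the pluripotent state. When pluripotency is left, cells take up the programmes of the primitive streak, mesoderm, endoderm, ectoderm or extraembryonic lineages, under the control of WNT, BMP, Nodal and FGF signals. Many of these pathways switch on their own inhibitors, so a secreted antagonist is often also a readout of the pathway.

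All levels below are normalised log2 intensities, in which 1 unit is a 2-fold difference, and all changes are knockdown minus control. Each array detected between 13343 and 14969 of 48803 probes at a detection p under 0.01, and the number of arrays limits the precision. Arrays of 1 group correlated across probes at 0.988 to 0.994. The replicate 3 arrays of all 4 groups stood apart from the others, their deviations from the group means correlating with each other at 0.615 to 0.738, and main counts are therefore also given without them. All 9 embryonic stem cell markers on the array were detected on every array of both groups. Summed over these 9 genes, linear intensity was 28124 to 34744 in knockdown and 44850 to 48207 in control arrays. The gene lists used below share some members, so their counts are not independent of each other. Their members were chosen with earlier results of these data known, so a list share above that of all genes is no independent support. Of all genes tested, 5.69% were called higher and 2.97% lower, and these shares apply beside each list.

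POU5F1, on chromosome 6, stood at 10.73, 11.01 and 10.34 on the 3 knockdown arrays and at 13.14, 12.92 and 12.69 on the 3 control arrays. Every knockdown array lay more than 1 unit below every control array, and the probe was detected on all 6. The group means were 10.69 ± 0.34 in knockdown and 12.92 ± 0.22 in control cells (SD, n = 3 each). The change was -2.23 (SE 0.19, limma adjusted p = 6.85e-06), which left 21.4% of the control level. It was the largest fitted fall of any gene at day 2. In a bulk sample, fewer cells with the transcript and less transcript per cell cannot be told apart, here and for every gene below.

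**Figure D1:**
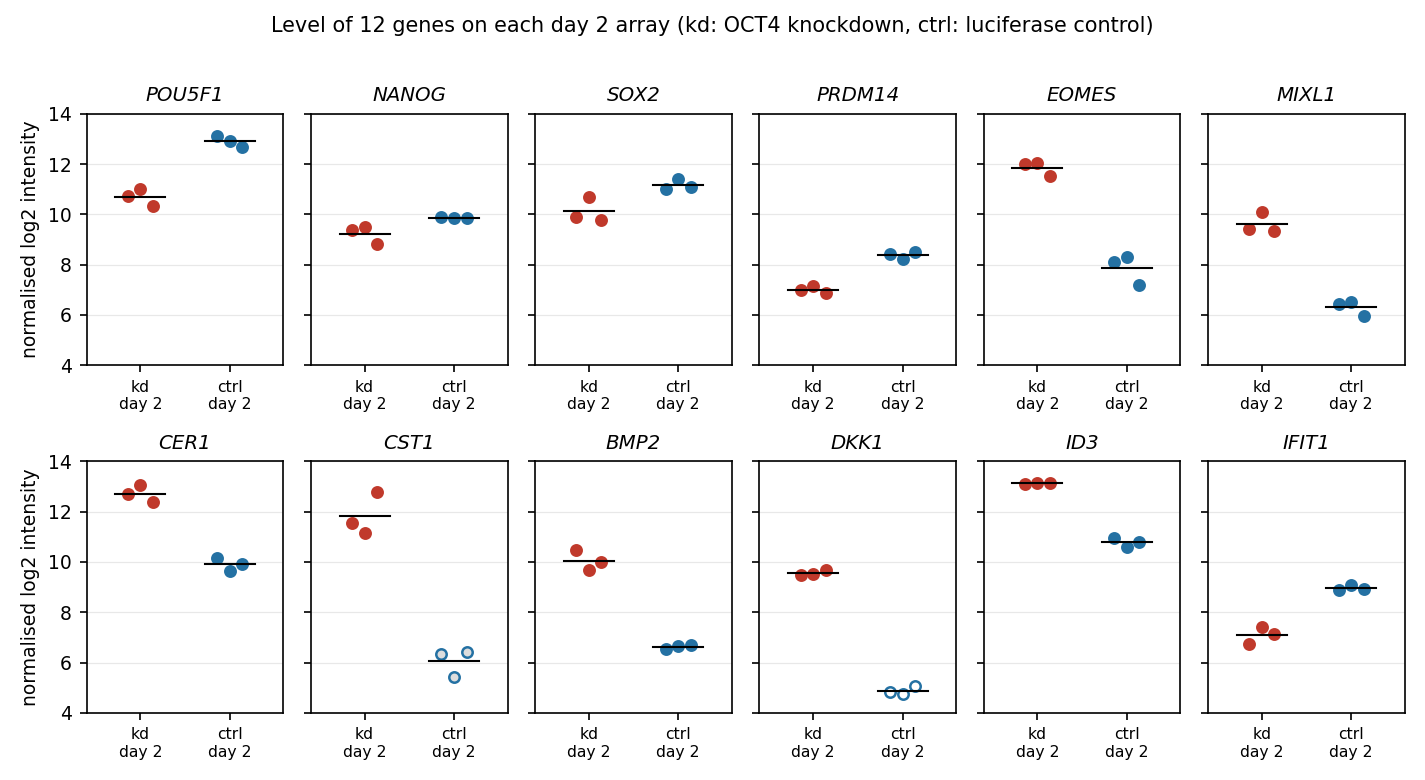
Normalised log2 intensity (vertical axes) of 12 genes on each of the 3 OCT4 knockdown arrays (red, left) and 3 luciferase control arrays (blue, right) of day 2, with replicates 1 to 3 side by side and the group mean as a line. Filled points mark probes detected on all 3 arrays of the group, grey fill marks detection on 1 or 2 and open points detection on none. In each of the 12 panels the groups are apart.

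At day 2, 910 of 10506 genes tested (8.66%) differed between knockdown and control at an adjusted p under 0.05. Of these, 598 (5.69%) were higher and 312 (2.97%) lower in knockdown. The fitted rises were larger than the fitted falls. Among higher genes the median change was 0.97 with quartiles of 0.71 and 1.41. Among lower genes the median size was 0.77 with quartiles of 0.63 and 0.99. A 4-fold change or more was fitted for 71 higher and 2 lower genes, and an 8-fold change for 18 higher genes and 0 lower genes. However, 114 higher genes were undetected on all 3 control arrays and detected on 1 or more knockdown arrays. Likewise, 30 lower genes were undetected on all 3 knockdown arrays and detected on 1 or more control arrays. Another 12 called genes, 11 higher and 1 lower, were detected on none of the 6 arrays. The sizes of all these genes are fitted values, not folds, and enter the medians and the counts by size. Counting genes called with at least a 2-fold change gave 283 higher (2.69%) and 76 lower (0.723%), 359 in all, against 233 with the authors' log2 values. For 906 of the 910 called genes every knockdown array lay on 1 side of every control array, as was the case for 24.1% of all genes tested. At an unadjusted p under 0.05 stood 20.3% of all genes. The median change over all genes was -0.04. Without the replicate 3 arrays 470 genes were higher and 227 lower. Of the 598 and 312 genes, 424 (70.9%) and 171 (54.8%) were also called there, which is 90.2% and 75.3% of the smaller sets. The number of lower genes was 204 without knockdown replicate 1, 183 without control replicate 1 and 203 without control replicate 2. With the replicate number as a block in the model, 983 genes were higher and 832 lower. The share of higher genes among those called was then 54.2%, against 65.7% without the block.

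**Figure D2:**
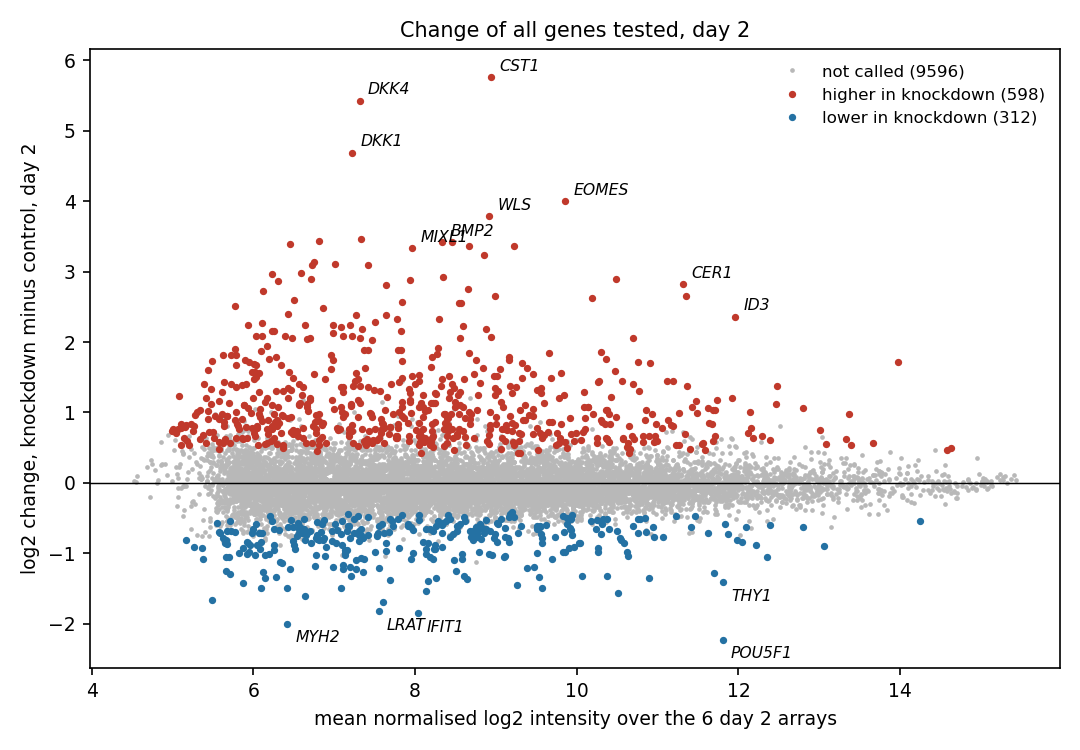
Log2 change (knockdown minus control, vertical axis) against the mean level over the 6 day 2 arrays (horizontal axis) for 10506 genes. Red points are the 598 genes higher in knockdown, blue points the 312 lower and grey points those that did not pass. The red points reach 5.76, whereas no blue point lies below -2.23.

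Genes of the pluripotency network moved down, but by less than POU5F1. Of 39 tested members (45 on the array), 22 were lower (56.4%, against 2.97% of all genes), 1 was higher and 16 did not pass. The median of the list was -0.78. When the replicate 3 arrays were left out 18 were lower and 1 higher. PRDM14, a PR-domain repressor needed for human pluripotency, stood at 7.0, 7.16 and 6.86 on knockdown arrays and at 8.41, 8.23 and 8.50 on control arrays. The groups were far apart, and the change was -1.38 (SE 0.17, adjusted p = 0.000131). UTF1, a chromatin-associated factor of undifferentiated cells, stood at 6.71, 6.42 and 6.53 in knockdown and at 7.59, 7.76 and 8.26 in control arrays, a change of -1.32 (SE 0.28, adjusted p = 0.00911). VSNL1, a neuronal calcium sensor that is also abundant in these cells, fell by 1.21 on the log2 scale (SE 0.16, adjusted p = 0.000281). FOXD3, a forkhead factor of pluripotent and neural crest cells, was detected on all 3 control arrays and on 0 knockdown arrays, and its level was at least 1.33-fold lower (adjusted p = 0.00191). The other 18 members that fell did so by between 0.63 and 1.21.

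SOX2 and NANOG, the partners of OCT4 in the core network, were close to the threshold. SOX2 stood at 9.88, 10.71 and 9.78 on knockdown arrays and at 11, 11.4 and 11.09 on control arrays. Knockdown replicate 2 lay only a little below the lowest control array, and the change was -1.04 (SE 0.26, adjusted p = 0.0218). A second SOX2 probe gave -1.01 (adjusted p = 0.00119 over all probes). The call of the first probe was lost without knockdown replicate 1 or 3, without control replicate 2 or 3, and without all replicate 3 arrays. NANOG stood at 9.38, 9.5 and 8.81 in knockdown arrays, against 9.88, 9.85 and 9.86 in control arrays. Its change of -0.63 (SE 0.18, adjusted p = 0.047) was called with all arrays but in only 7 of 22 alternative settings (adjusted p = 0.0118 to 0.207). Among the 9 embryonic stem cell markers, 6 were lower with all arrays and 3 without the replicate 3 arrays, and between 1 and 7 over all alternatives. The lower ones included L1TD1, an RNA-binding protein, at -0.98 (adjusted p = 0.018), DPPA4, a nuclear protein of pluripotent cells, at -0.90 (adjusted p = 0.0284), and TERF1, a telomere-binding protein, at -0.85 (adjusted p = 0.0446). The calls of L1TD1, DPPA4 and TERF1 were lost in 4, 7 and 12 of 22 alternatives, and a second TERF1 probe did not pass (-0.68, adjusted p = 0.066 over all probes). The 1 network gene that rose was OTX2, a homeobox factor that also serves anterior neuroectoderm and endoderm. It stood at 9.66, 9.95 and 9.86 in knockdown arrays, above all 3 control arrays at 8.52, 8.84 and 8.99 (1.04, SE 0.15, adjusted p = 0.000656). A second, dimmer OTX2 probe gave 0.87 and did not pass (adjusted p = 0.183 over all probes).

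Most tested primitive streak and mesoderm genes rose. Of 24 tested members (31 on the array), 17 were higher (70.8%, against 5.69% of all genes), 1 was lower and 6 did not pass, with a median of 1.38. Without the replicate 3 arrays 16 were higher and 1 lower. EOMES, a T-box factor that starts the streak and endoderm programmes, stood at 11.99, 12.04 and 11.54 on knockdown arrays and at 8.09, 8.29 and 7.21 on control arrays. All 3 knockdown arrays lay over 3 units above the highest control array, a change of 4.0 (SE 0.36, adjusted p = 1.08e-05). MIXL1, a homeobox factor of the streak, stood at 9.44, 10.09 and 9.36 in knockdown and at 6.43, 6.50 and 5.97 in control arrays (3.33, SE 0.39, adjusted p = 9.06e-05). TBXT, the brachyury factor that marks the whole streak, did not follow them. It stood at 6.50, 5.95 and 6.34 in knockdown arrays and at 6.56, 6.55 and 6.39 in control arrays, where the ranges overlap (-0.24, SE 0.28, adjusted p = 0.717). These levels are near the detection limit, and 2 of 3 knockdown arrays and all 3 control arrays detected TBXT, so a change could be missed.

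Of the 17 risers in this list, only 6 were detected in both groups. Another 9 were undetected on all control arrays and passed the detection filter largely through knockdown arrays. For these a lower bound replaces the fold. MSX1, a homeobox factor induced by BMP, stood at 8.86, 8.56 and 8.27 in knockdown arrays, whereas its 5.62, 5.42 and 5.32 in control arrays were not above background. It was at least 6.34-fold higher (adjusted p = 6.28e-08). LHX1, a LIM-homeobox factor of the organiser and early mesoderm, was detected at 8.24, 8.06 and 8.17 on knockdown arrays only and was at least 4.79-fold higher (adjusted p = 8.52e-07). MSX2 and GATA4 were called higher although their probes were detected on none of the 6 arrays, so no fold is given. With every value raised to at least the lowest detected level of its array, the median over all 31 genes on the array was 0.09. KDR, the VEGF receptor of blood and vessel precursors, was the member that fell. It was detected on all 3 control arrays and on 0 knockdown arrays, at least 1.38-fold lower (adjusted p = 0.025), and the call was lost in 5 of 22 alternatives.

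Endoderm genes rose in a similar share. Of 24 tested members (31 on the array), 16 were higher (66.7%, against 5.69% of all genes), 1 was lower and 7 did not pass, with a median of 1.06. Of the 16, 13 were detected in both groups and 2 in 1 group only. The last, GATA4, was detected in neither and has no fold. The counts were again 16 and 1 without the replicate 3 arrays. With values held at the detection level the median over all 31 was 0.51. CST1, a secreted cystatin that inhibits cysteine proteases, had the largest fitted change of all genes. It stood at 11.54, 11.15 and 12.79 in knockdown arrays, against 6.33, 5.44 and 6.41 in control arrays, of which 2 detected it (5.76, SE 0.48, adjusted p = 5.36e-06). CER1, a secreted antagonist of Nodal, BMP and WNT made by anterior endoderm, stood at 12.71, 13.06 and 12.4 in knockdown arrays and was already bright in control arrays at 10.14, 9.65 and 9.92. Its change was 2.82 (SE 0.28, adjusted p = 2.04e-05), and a second probe gave 3.02. FOXA2, a pioneer factor of endoderm, stood at 8.08, 7.89 and 8.33 on knockdown arrays and at 6.26, 5.84 and 4.76 on control arrays, of which 1 detected it (2.49, SE 0.39, adjusted p = 0.000982). FLRT3, an adhesion protein of the streak and anterior endoderm, rose by 2.24 (SE 0.17, adjusted p = 2.54e-06) and was likewise detected on 1 control array.

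SOX17, which commits cells to definitive endoderm, was only just above the detection level at day 2. Its 6.82, 7.01 and 6.33 in knockdown arrays were all detected and its 4.86, 4.87 and 4.73 in control arrays were not, which puts it at least 1.76-fold higher (adjusted p = 0.000502). AFP, a serum protein of yolk sac and fetal liver, went the other way. It stood at 8.38, 8.2 and 8.34 in knockdown arrays, below 9.23, 9.16 and 9.48 in control arrays (-0.98, SE 0.21, adjusted p = 0.00917). That call was lost without the replicate 3 arrays.

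**Figure D3:**
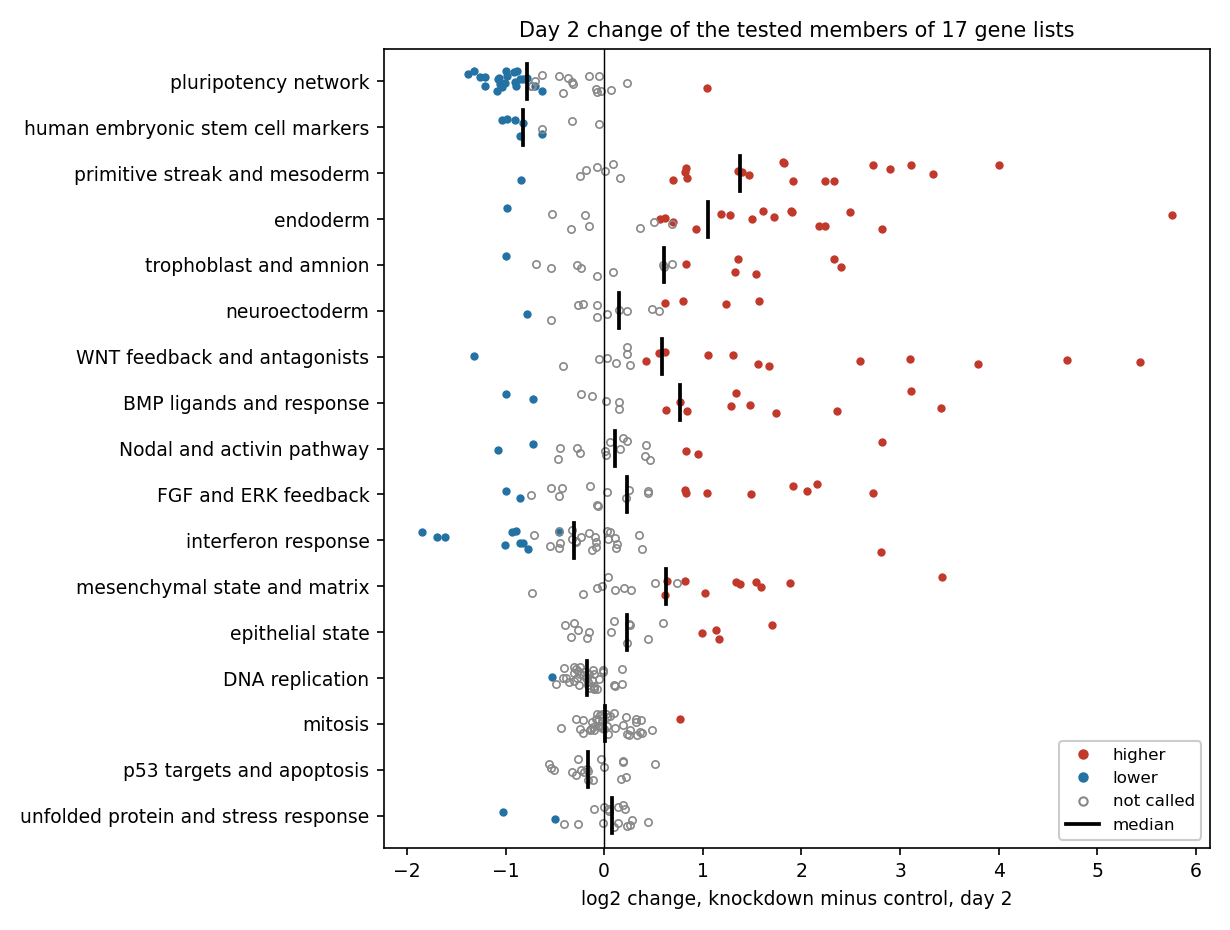
Fitted day 2 log2 change (knockdown minus control, horizontal axis) of the tested members of 17 gene lists. Red points were called higher in knockdown, blue points lower, open points did not pass, and black bars are list medians. Points of genes undetected in 1 or both groups carry fitted values, not folds. The pluripotency bar lies at -0.78 and the primitive streak bar at 1.38, while the DNA replication and mitosis bars lie at -0.17 and 0.01.

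Genes that report or restrain WNT signalling held several of the steepest rises. Of 20 tested members (27 on the array), 12 were higher (60.0%, against 5.69% of all genes), 1 was lower and 7 did not pass. The median was 0.59, or 0.23 over all 27 with values held at the detection level. The replicate 1 and 2 arrays alone gave 10 higher and 1 lower. DKK1 and DKK4 encode secreted antagonists that bind the WNT co-receptors LRP5 and LRP6. DKK4 stood at 9.98, 10.21 and 9.89 in knockdown arrays and was undetected on all control arrays at 4.62, 4.75 and 4.42. It was at least 17.5-fold higher (adjusted p = 2.47e-06), the highest bound of any gene. DKK1 stood at 9.47, 9.54 and 9.68 in knockdown arrays and was likewise undetected in control arrays, at 4.82, 4.76 and 5.05 (at least 12.7-fold, adjusted p = 1.98e-08). WLS, the carrier that brings WNT proteins to the cell surface, stood at 10.9, 10.3 and 11.22 in knockdown arrays, against 7.17, 6.78 and 7.09 in control arrays. Its change was 3.79 (SE 0.22, adjusted p = 2.13e-07), and its 4 other probes gave between 1.83 and 3.49. TNFRSF19, a TNF-family receptor known as a WNT target, stood at 9.05, 8.98 and 8.88 in knockdown arrays and at 6.09, 5.69 and 5.83 in control arrays, of which 1 detected it (3.10, SE 0.14, adjusted p = 2.66e-08). NKD1, an intracellular inhibitor that binds Dishevelled, was detected on knockdown arrays only and was at least 3.73-fold higher (adjusted p = 6.17e-06), and its second probe gave 1.15. The exception was SFRP2, a secreted frizzled-related protein that is abundant in embryonic stem cells. It stood at 9.69, 10.05 and 9.43 in knockdown arrays, below 10.98, 11.17 and 10.98 in control arrays (-1.32, SE 0.20, adjusted p = 0.000699).

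Several BMP ligands and response genes rose. Of 17 tested members (25 on the array), 10 were higher (58.8%, against 5.69% of all genes), 2 were lower and 5 did not pass. The median was 0.77, or -0.02 over all 25 with values held at the detection level. Of the 10, 6 were detected in both groups, MSX1 and BMP4 in knockdown arrays only, and MSX2 and DLX5 on none of the 6 day 2 arrays, so the last pair has no fold. The replicate 1 and 2 arrays alone gave 8 higher and 1 lower. BMP2, the ligand, stood at 10.47, 9.69 and 9.98 in knockdown arrays and at 6.55, 6.66 and 6.68 in control arrays, with a gap of more than 3 units (3.42, SE 0.20, adjusted p = 2.13e-07). ID3, a dominant-negative helix-loop-helix protein that SMAD proteins induce directly, stood at 13.09, 13.14 and 13.16 in knockdown arrays and at 10.94, 10.61 and 10.78 in control arrays (2.36, SE 0.13, adjusted p = 1.7e-07). GREM1, a secreted BMP antagonist, stood at 10.49, 9.08 and 10.54 in knockdown arrays, against 7.91, 8.12 and 8.84 in control arrays. Knockdown replicate 2 lay well below its partners yet above the controls (1.74, SE 0.35, adjusted p = 0.00596). Of the falls, HEY1, a Notch and BMP target repressor, was at -1.0 (SE 0.19, adjusted p = 0.00424) and SMAD7, an inhibitory SMAD, at -0.72 (SE 0.17, adjusted p = 0.017). The SMAD7 call was lost in 4 of 22 alternatives, and a second SMAD7 probe gave -0.88 without passing (adjusted p = 0.103 over all probes).

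In the Nodal and activin pathway most genes did not pass. Of 18 tested members, 3 were higher (16.7%, against 5.69% of all genes), 2 were lower and 13 did not pass. The median was 0.11, or 0.01 over all 22 on the array with values held at the detection level. Besides CER1, the risers were SMAD3, which transmits the signal, at 0.95 (SE 0.24, adjusted p = 0.025, lost in 4 of 22 alternatives), and PMEPA1, a membrane protein that restrains it, at 0.83 (SE 0.14, adjusted p = 0.0023). GDF3, a ligand of the same family made by pluripotent cells, stood at 7.48, 7.78 and 7.79 in knockdown arrays and at 8.88, 8.76 and 8.65 in control arrays (-1.08, SE 0.15, adjusted p = 0.000504).

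Several FGF ligands rose, while a pair of ETS factors fell. Of 22 tested members of the FGF and ERK list, 8 were higher (36.4%, against 5.69% of all genes), 2 were lower and 12 did not pass. The median was 0.24, or 0.0 over all 26 on the array with values held at the detection level. Of the 8, 6 were detected in both groups. FGF17 and FGF18 were detected on 0 control arrays of either day, so they passed the detection filter through knockdown arrays only. Without the replicate 3 arrays 8 were higher and 3 lower. FGF17 stood at 7.28, 7.41 and 7.79 in knockdown arrays and was undetected in control arrays, at least 3.02-fold higher (adjusted p = 8.28e-06). FGF18 stood at 6.79, 7.82 and 7.41 in knockdown arrays and was undetected in control arrays, at least 2.71-fold higher (adjusted p = 4.52e-05). FGF8, the ligand that drives cells through the streak in the mouse, stood at 8.88, 9.66 and 9.20 in knockdown arrays and at 7.72, 7.15 and 7.13 in control arrays (1.91, SE 0.31, adjusted p = 0.00124). IER3, an immediate early gene, rose by 2.06 (SE 0.22, adjusted p = 4.02e-05). The ETS factors ETV4 (-0.99, SE 0.21, adjusted p = 0.00827) and ETV5 (-0.85, SE 0.18, adjusted p = 0.00854), both induced by FGF signalling in many tissues, were lower, and a second probe of each also fell.

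Many trophoblast and neuroectoderm genes were not detected at day 2. Of 36 trophoblast and amnion genes on the array, 22 were undetected on all 6 arrays. The 16 that were tested include CCKBR and SLC40A1, which were undetected at day 2 and passed the filter through day 3 arrays. Of the 16, 6 were higher (37.5%, against 5.69% of all genes), SLC40A1 among them and without a fold, 1 was lower and 9 did not pass. The median was 0.61, or -0.02 over all 36 with values held at the detection level. ENPEP, an aminopeptidase of trophoblast, stood at 8.05, 7.31 and 7.5 in knockdown arrays and was undetected in control arrays (at least 3.30-fold, adjusted p = 6.17e-06). ISL1, a LIM-homeobox factor of amnion and heart progenitors, stood at 8.73, 9.40 and 8.69 in knockdown arrays and at 6.69, 6.49 and 6.66 in control arrays (2.33, SE 0.20, adjusted p = 6.43e-06). KRT7, a keratin of trophoblast and amnion, was at 7.67, 6.70 and 8.18 in knockdown arrays, against 5.87, 5.74 and 6.32 in control arrays, of which 1 detected it (1.54, SE 0.39, adjusted p = 0.0235, lost in 5 of 22 alternatives). HAND1, a helix-loop-helix factor of trophoblast and mesoderm, was detected on 2 of 3 knockdown arrays and on no control array. It stood at 6.75, 6.05 and 6.61 in knockdown and 5.02, 5.07 and 5.24 in control arrays, and passed (adjusted p = 0.000585). Its bound was 1.49-fold, averaged over knockdown arrays that did not all detect it. GATA3, an early trophoblast factor, overlapped between the groups, with 6.13, 5.81 and 6.53 in knockdown and 5.29, 4.93 and 6.18 in control arrays (0.69, SE 0.31, adjusted p = 0.227). It passed without control replicate 3, without all replicate 3 arrays and with the replicate number as a block. CDX2, the homeobox factor of trophectoderm, was not tested because it was detected on 0 of the 12 arrays.

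Of 31 neuroectoderm genes on the array 15 were tested, and 4 were higher (26.7%, against 5.69% of all genes), 1 was lower and 10 did not pass. The median was 0.15, or -0.02 over all 31 with values held at the detection level. PAX6, the eye and forebrain factor, was not tested. DLK1, a Notch-like ligand, was at 7.0, 7.25 and 7.44 in knockdown arrays and at 5.38, 5.53 and 6.06 in control arrays, of which 1 detected it (1.57, SE 0.27, adjusted p = 0.00231). SOX9, a factor of neural crest, cartilage and endoderm, was at 1.24 (SE 0.26, adjusted p = 0.00917), a call lost without knockdown replicate 1 and without all replicate 3 arrays. CDH2, or N-cadherin, already bright in control cells, stood at 13.61, 13.77 and 13.53 in knockdown arrays and at 12.97, 13 and 13.08 in control arrays (0.62, SE 0.13, adjusted p = 0.00743). MEIS2, a TALE homeobox factor, was detected on 2 of 3 knockdown arrays and on no control array. It stood at 6.01, 6.08 and 6.02 in knockdown and 5.34, 5.22 and 5.14 in control arrays, and passed (adjusted p = 0.00684). Its bound was 1.1-fold, again over knockdown arrays that did not all detect it. SOX3, a SOXB1 factor shared by pluripotent and neural cells, was at -0.78 (SE 0.22, adjusted p = 0.0376), a call lost in 8 of 22 alternatives.

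A part of the interferon response genes also moved down, while most of those tested did not pass. Genes induced by type I interferon often carry a short promoter element, the interferon-stimulated response element. Of 34 tested members (45 on the array), 10 were lower (29.4%, against 2.97% of all genes), 1 was higher and 23 did not pass, with a median of -0.31, or -0.02 over all 45 genes with values held at the detection level. Of the 10, 7 were detected in both groups, 2 in 1 group only and 1 in neither, so the last has no fold. Without the replicate 3 arrays 9 were lower and 1 higher. The 300-base promoters that follow show the element in 2 genes that fell and in the 1 that rose. They are RefSeq sequences of build GRCh38.p14, from 250 bases before to 50 after the start of the gene, with capitals at each match, on either strand, to the core of the element, 2 copies of GAAA with any 2 bases between them.
IFIT1 (chr10:89392373-89392672, plus strand): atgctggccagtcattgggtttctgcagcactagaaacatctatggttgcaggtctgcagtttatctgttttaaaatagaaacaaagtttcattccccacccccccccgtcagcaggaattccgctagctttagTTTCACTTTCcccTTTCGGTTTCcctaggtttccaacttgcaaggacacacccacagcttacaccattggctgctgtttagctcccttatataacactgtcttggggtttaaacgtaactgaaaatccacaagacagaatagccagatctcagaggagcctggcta
IFIT3 (chr10:89327747-89328046, plus strand): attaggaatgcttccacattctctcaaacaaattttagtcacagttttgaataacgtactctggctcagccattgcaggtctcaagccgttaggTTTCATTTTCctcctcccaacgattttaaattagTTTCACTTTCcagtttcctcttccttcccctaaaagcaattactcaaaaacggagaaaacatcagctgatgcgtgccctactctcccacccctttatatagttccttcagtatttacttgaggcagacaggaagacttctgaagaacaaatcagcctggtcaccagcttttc
EPSTI1 (chr13:42992192-42992491, minus strand): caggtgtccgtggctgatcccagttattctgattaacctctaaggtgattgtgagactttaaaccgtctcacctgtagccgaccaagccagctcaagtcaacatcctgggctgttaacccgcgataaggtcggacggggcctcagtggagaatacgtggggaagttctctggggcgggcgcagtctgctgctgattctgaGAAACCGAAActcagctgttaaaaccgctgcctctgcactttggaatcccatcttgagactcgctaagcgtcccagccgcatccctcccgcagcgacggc

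IFIT1, an antiviral protein that binds foreign RNA ends, stood at 6.75, 7.42 and 7.15 in knockdown arrays and at 8.90, 9.07 and 8.91 in control arrays, more than 1 unit apart. Its change was -1.85 (SE 0.17, adjusted p = 8.69e-06), and its promoter holds 2 matches, which begin at positions -116 and -103 from the start. IFIT2, a relative, was at 6.86, 7.01 and 6.42 in knockdown arrays, against 8.45, 8.63 and 8.27 in control arrays (-1.69, SE 0.23, adjusted p = 0.000328). IFIT3, whose promoter holds 2 matches at positions -156 and -122, was at 5.79, 5.63 and 6.08 in knockdown arrays, of which 2 detected it, and at 7.41, 7.56 and 7.36 in control arrays (-1.61, SE 0.22, adjusted p = 0.000302). A second IFIT3 probe gave -1.20 and did not pass (adjusted p = 0.0564 over all probes). TRIM22, an antiviral ubiquitin ligase, fell by 1.01 on the log2 scale (SE 0.21, adjusted p = 0.00805). EPSTI1, an interferon-induced gene that is also found in stromal cells near tumours, has 1 match at position -50 and moved the other way. It stood at 8.85, 9.33 and 8.92 in knockdown arrays, against 6.39, 6.64 and 5.66 in control arrays, of which 2 detected it (2.81, SE 0.25, adjusted p = 8.33e-06).

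The same core was found in 18 of the 26 tested interferon genes with a promoter in the table (69.2%), against 3.65% of 27305 promoters of the same length and 2.58% of those of tested genes. Of these 18, IFIT1, IFIT3, IFI6, IFIH1 and TAP1 were lower and EPSTI1 was higher at day 2. The rest did not pass, among them ISG15, MX1, BST2, IFITM1, DDX60 and HERC5, so the core was not confined to genes that changed. Among genes called at day 2 it stood in 2.02% of higher and 4.02% of lower ones. The octamer ATGCAAAT, a classical POU motif, stood in 1.57% of promoters of higher genes and 1.2% of those of lower genes, against 1.36% of those of tested genes and 1.8% of all promoters. The TCF core CTTTGAT stood in 2.25% of promoters of higher genes and 2.41% of those of lower genes, against 1.54% of those of tested genes and 2.64% of all. Both strands were searched. The called sets each hold at most 10 promoters with any 1 of these motifs. These shares describe letters within 300 bases and say nothing of binding elsewhere.

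Matrix and mesenchymal genes rose together with several epithelial ones. Of 20 tested mesenchymal and matrix genes, 10 were higher, 0 were lower in the limma fit (1 at an unadjusted p under 0.05) and 10 did not pass, with a median of 0.63, and 9 were higher without the replicate 3 arrays. HAPLN1, which links hyaluronan to proteoglycans, stood at 8.89, 8.25 and 8.43 in knockdown arrays and was undetected in control arrays (at least 6.17-fold, adjusted p = 5.15e-08). A second HAPLN1 probe was at 4.72 to 4.84 in knockdown and 4.45 to 4.69 in control arrays and did not pass (0.19, adjusted p = 0.648 over all probes). CDH11, a mesenchymal cadherin, was at 1.88 (SE 0.24, adjusted p = 0.000204), MMP9, a secreted gelatinase, at 1.59 (SE 0.18, adjusted p = 7.29e-05) and COL5A1, a fibrillar collagen chain, at 1.54 (SE 0.18, adjusted p = 0.0001). Of 17 tested epithelial genes, 4 were higher (23.5%, against 5.69% of all genes) and 0 lower in the limma fit (1 at an unadjusted p under 0.05). They were PKP2, a desmosome plaque protein (1.70, SE 0.16, adjusted p = 1.09e-05), DSP, its cytoskeletal linker (1.13, SE 0.13, adjusted p = 9.06e-05), and the keratins KRT8 (1.16, SE 0.27, adjusted p = 0.0152) and KRT19 (0.99, SE 0.20, adjusted p = 0.00555). The KRT8 call was lost in 4 of 22 alternatives.

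Fibroblast or feeder markers moved beside the matrix genes in part. Of 11 on the array, 5 were detected on all arrays of each group, and COL3A1, DCN, LUM, POSTN and FAP were detected on none of the 6. Their summed linear intensity was 8885 to 14515 in knockdown and 8195 to 12615 in control arrays, and the ranges overlap. This sum mixes THY1, which fell, with markers that rose, so its overlap does not show that the markers kept their levels. Of 7 tested, PDGFRB, a growth factor receptor (1.51, SE 0.24, adjusted p = 0.00107), and the collagen chains COL1A2 (1.44, SE 0.31, adjusted p = 0.00966) and COL1A1 (1.38, SE 0.30, adjusted p = 0.01) were higher. THY1, a surface glycoprotein of fibroblasts and of embryonic stem cells, stood at 10.88, 11 and 11.4 in knockdown arrays and at 12.32, 12.31 and 12.9 in control arrays (-1.41, SE 0.25, adjusted p = 0.00294). Of 7 blood and endothelial markers, KDR was the only one detected on all arrays of a group. The part of other cells in these results was not tested.

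Cell cycle genes and p53 targets passed in no larger share than all genes, of which 5.69% were higher and 2.97% lower. Of 37 tested DNA replication genes 1 passed (2.7%), the helicase subunit MCM2 (-0.53, SE 0.15, adjusted p = 0.0423), which was lost in 12 of 22 alternatives. Of 40 tested mitosis genes 1 passed (2.5%), the actin-binding protein ANLN (0.77, SE 0.18, adjusted p = 0.0135). Of 19 tested p53 targets 0 passed in the limma fit (1 higher and 2 lower at an unadjusted p under 0.05), with between 0 and 1 higher and between 0 and 2 lower over all alternatives. Of 18 tested unfolded protein and stress genes 2 were lower (11.1%, against 2.97% of all genes). They were HMOX1, the haem oxygenase of oxidative stress (-1.03, SE 0.28, adjusted p = 0.0374), and CRELD2, an endoplasmic reticulum chaperone (-0.50, SE 0.14, adjusted p = 0.0389). The calls were lost in 8 and 11 of 22 alternatives.

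Several of the largest changes stood in none of these lists. PAPPA, a protease that frees insulin-like growth factors from their binding proteins, was at 9.17, 9.23 and 8.79 in knockdown arrays and at 5.42, 5.45 and 5.93 in control arrays, of which 1 detected it (3.47, SE 0.23, adjusted p = 7.48e-07). PKDCC, a secreted tyrosine kinase, was at 10.4, 10.22 and 9.89 in knockdown arrays and at 6.96, 6.81 and 6.48 in control arrays (3.42, SE 0.18, adjusted p = 6.28e-08). SOX18, a SOX factor of vessels, was at 11.06, 11.34 and 10.35 in knockdown arrays, against 7.91, 7.28 and 7.44 in control arrays (3.37, SE 0.28, adjusted p = 5.95e-06). In all 3 of these genes every knockdown array lay over 2 units above every control array. ANKRD1, a muscle ankyrin repeat protein and known YAP target, rose by 3.37 (SE 0.27, adjusted p = 4.47e-06). The protocadherins PCDH10 and PCDH7 rose by 3.23 (SE 0.15, adjusted p = 2.79e-08) and 2.92 (SE 0.21, adjusted p = 1.81e-06), although other PCDH7 probes gave 1.90 and 0.86. BGN, a matrix proteoglycan, rose by 2.90 (SE 0.20, adjusted p = 8.52e-07) and CALB2, the calcium-binding protein calretinin, by 2.88 (SE 0.23, adjusted p = 4.33e-06).

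Among the falls, MYH2, a myosin heavy chain of skeletal muscle, was at 5.95, 5.52 and 4.77 in knockdown arrays, of which 1 detected it, and at 7.14, 7.61 and 7.49 in control arrays (-2.0, SE 0.26, adjusted p = 0.000221). LRAT, which esterifies retinol, was at 6.68, 7.06 and 6.17 in knockdown arrays and at 8.64, 8.34 and 8.40 in control arrays (-1.82, SE 0.22, adjusted p = 0.000121). LNCPRESS1, a long noncoding RNA of pluripotent cells, was at 9.83, 9.89 and 9.48 in knockdown arrays and at 11.39, 11.07 and 11.44 in control arrays (-1.57, SE 0.17, adjusted p = 6.41e-05). The groups were apart in all 3. MRAP2, an accessory protein of melanocortin receptors (-1.54, SE 0.24), PDZD4 (-1.49, SE 0.15) and GNA14, a G protein subunit (-1.45, SE 0.14), fell on arrays where both groups were detected (adjusted p at most 0.000901). IQSEC2, an exchange factor of synapses, was detected on 1 knockdown array and was at -1.5 (SE 0.23, adjusted p = 0.000957). LINC00997, a noncoding RNA, was at -1.37 (SE 0.27, adjusted p = 0.00558). The calls of HLA-DPB2, a class II pseudogene (-1.49, adjusted p = 0.0227), and GLIPR1L1 (-1.39, adjusted p = 0.0336) were lost in 5 and 7 of 22 alternatives.

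Some genes crossed the detection limit. A gene was counted as switched on when a probe was detected on all 3 knockdown arrays and on no control array, with no probe of the gene detected on all 3 control arrays. Of 18852 named genes on the array 75 were switched on (0.398%), and by the mirror image 28 were switched off (0.149%). Between the control arrays of day 3 and day 2 the same rule gave 15 on (0.0796%) and 20 off (0.106%). The bound reached 2-fold for 31 of the 75 and for 0 of the 28, with medians of 1.83-fold and 1.36-fold. Of the 75, 71 were also called in a fit over single probes, and of the 28, 21 were. The rule and this fit read the same day 2 arrays, so the overlap gives no separate support. The count of genes switched on became 174 without knockdown replicate 2, the array with the fewest detected probes, and 112 without replicate 3 of both groups. That of genes switched off was 77 without knockdown replicate 1, 54 without knockdown replicate 3, 43 without control replicate 1, 49 without control replicate 3 and 79 without replicate 3 of both groups.

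Beside DKK4, DKK1, MSX1, HAPLN1, LHX1 and NKD1, the highest bounds among genes switched on were the following. ALPK2, an alpha kinase with a role in heart development in zebrafish, was at 8.51, 8.01 and 8.42 in knockdown arrays, against undetected levels of 5.12, 5.25 and 5.18 in control arrays (at least 5.33-fold, adjusted p = 2.79e-08). CALCR, the calcitonin receptor, was at 8.05, 8.83 and 7.98 in knockdown arrays, against 5.06, 5.18 and 5.31 in control arrays (at least 5.22-fold, adjusted p = 4.76e-06). LGI1, a secreted leucine-rich protein of synapses, was at 7.73, 8.57 and 8.14 in knockdown arrays, against 4.67, 4.84 and 4.77 in control arrays (at least 4.75-fold, adjusted p = 8.52e-07). TM4SF1, a tetraspanin-like membrane protein, was at 8.22, 7.47 and 8.54 in knockdown arrays, against 5.07, 5.29 and 4.93 in control arrays (at least 4.52-fold, adjusted p = 4.58e-06). In each, the lowest knockdown array lay more than 2 units above the highest control array. The 5 highest bounds among genes switched off were lower. They were MSC, a helix-loop-helix repressor, at 5.51, 5.17 and 5.34 in knockdown arrays and 6.96, 6.46 and 7.11 in control arrays (at least 1.95-fold, adjusted p = 0.000121), LINC01844 (1.93), the synaptic protein LRRTM1 (1.62), the ubiquitin ligase MARCHF3 (1.59) and the glutamate receptor auxiliary protein CNIH3 (1.58).

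The day 3 arrays are other samples with controls of their own, and shared with day 2 the normalisation, the detection filter and the estimate of the spread. Of the 598 genes higher at day 2, 548 (91.6%) were also called higher at day 3 and 0 were called lower. Of the 312 lower genes, 277 (88.8%) were called lower at day 3 and 1 was called higher. At day 3, 1505 genes (14.3%) were higher and 1609 (15.3%) lower, so day 2 held 36.4% of the day 3 risers and 17.2% of the day 3 fallers. The median change of the day 2 risers was 0.97 at day 2 and 1.39 at day 3, and that of the day 2 fallers -0.77 and -1.09. Tested directly, the change at day 3 was larger for 96 of the 598 and 22 of the 312, and smaller or turned for 10 and 2. Of all genes tested 243 (2.31%) differed between the days, 1.73% with a more positive and 0.581% with a more negative change at day 3. Of the 75 genes switched on, 67 were detected on all 3 knockdown arrays of day 3, and 45 (60.0%) were also undetected on all 3 control arrays of that day. For the 28 switched off, 13 (46.4%) kept both states.

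**Figure D4:**
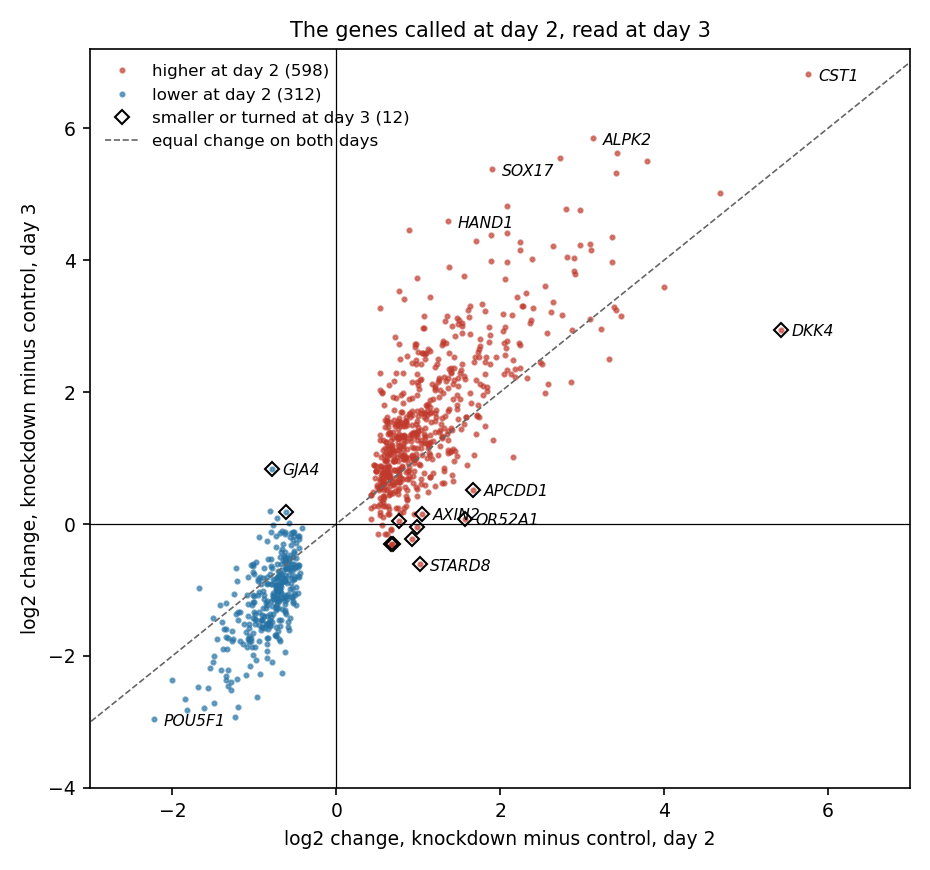
Log2 change (knockdown minus control) at day 3 (vertical axis) against day 2 (horizontal axis) for the 910 genes called at day 2, red where higher and blue where lower at day 2. Black diamonds are the 12 genes whose change was smaller or turned at day 3 by the test of the difference, and the dashed line marks equal changes. Nearly all points lie at the lower left and the upper right, and the medians are larger at day 3.

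The genes with the largest fitted differences between the days included some that were undetected at day 2, for which only a bound at day 3 is given. CCKBR, a gastrin receptor, was undetected on all 6 day 2 arrays and at day 3 stood at 8.59, 9.32 and 9.21 in knockdown arrays while it stayed undetected in control arrays, at least 8.61-fold higher (adjusted p of the difference between days = 1.49e-05). GRP, a gastrin-releasing neuropeptide, was likewise undetected at day 2 and at least 5.43-fold higher at day 3 (adjusted p of the difference = 5.01e-06). CCL2, a monocyte chemokine, was detected on all 6 day 2 arrays without passing, at -0.23, and rose by 2.65 at day 3 (difference 2.88, adjusted p = 0.0004). CCDC81, a coiled-coil protein, was at 0.89 at day 2, a call lost in 11 of 22 alternatives, and at least 14.7-fold higher at day 3, when no control array detected it (adjusted p of the difference = 7.31e-05). SOX17 stood at 10.46, 10.79 and 10.5 in knockdown arrays of day 3, against 5.94, 5.03 and 4.64 in control arrays, of which 1 detected it (adjusted p of the difference = 0.000241). HAND1 was at least 11.4-fold higher at day 3, when all 3 knockdown arrays and no control array detected it (adjusted p of the difference = 3.09e-05). NANOG, near the threshold at day 2, fell further by 1.31 (adjusted p = 0.0155), whereas the further fall of POU5F1 did not pass (-0.73, adjusted p = 0.244). FGF19, a growth factor ligand, did not pass at day 2 (0.55, adjusted p = 0.166) and was lower at day 3 (-1.57, adjusted p = 0.000115). DPPA5, an RNA-binding protein of pluripotent cells, and TIMP4, a metalloproteinase inhibitor, were at -0.08 and 0.14 at day 2 without passing. At day 3 DPPA5 was undetected in knockdown arrays, at least 2.66-fold lower, and TIMP4 was at -1.62. CLC, a galectin, and GRM4, a glutamate receptor, fell by 1.23 and 0.97 at day 2. At day 3 CLC was undetected in knockdown arrays, at least 4.86-fold lower, and GRM4 was at -2.62.

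A small set of day 2 changes was smaller or turned at day 3. The 12 genes were taken after their values were seen, and the difference between days is what chose them. Among them were 3 of the 20 tested WNT genes, AXIN2, APCDD1 and DKK4. AXIN2, a scaffold of the complex that degrades beta-catenin and a common WNT readout, stood at 10.06, 10.04 and 9.85 in knockdown arrays and at 8.90, 9.02 and 8.89 in control arrays of day 2 (1.05, SE 0.14, adjusted p = 0.000256). At day 3 it stood at 9.37, 9.67 and 9.72 in knockdown arrays and at 9.59, 9.30 and 9.38 in control arrays, which overlap (0.16, adjusted p = 0.421). APCDD1, a membrane inhibitor of WNT, was at 7.32, 6.97 and 7.25 in knockdown arrays and undetected in control arrays at day 2 (at least 2.43-fold, adjusted p = 2.29e-05), and its change at day 3 was 0.52 (adjusted p = 0.0296). DKK4 kept its level in knockdown arrays, at 10.25, 10.40 and 10.20 on day 3, while its control arrays of day 3 stood at 8.70, 6.91 and 6.38 and all detected it. It was still higher in knockdown at day 3 (2.95, adjusted p = 0.00011). The fitted differences of AXIN2 (-0.89, adjusted p = 0.0299), APCDD1 (-1.15, adjusted p = 0.0189) and DKK4 (-2.48, adjusted p = 0.0405) were called in 11, 15 and 8 of 21 alternatives. Those of APCDD1 and DKK4 rest on control values of day 2 that were not above background. Those of AXIN2 and APCDD1 were lost without the replicate 3 arrays (adjusted p = 0.0674 and 0.0514). DKK1 and NKD1 showed no such difference (0.33 and -0.46, adjusted p = 0.735 and 0.649).

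**Figure D5:**
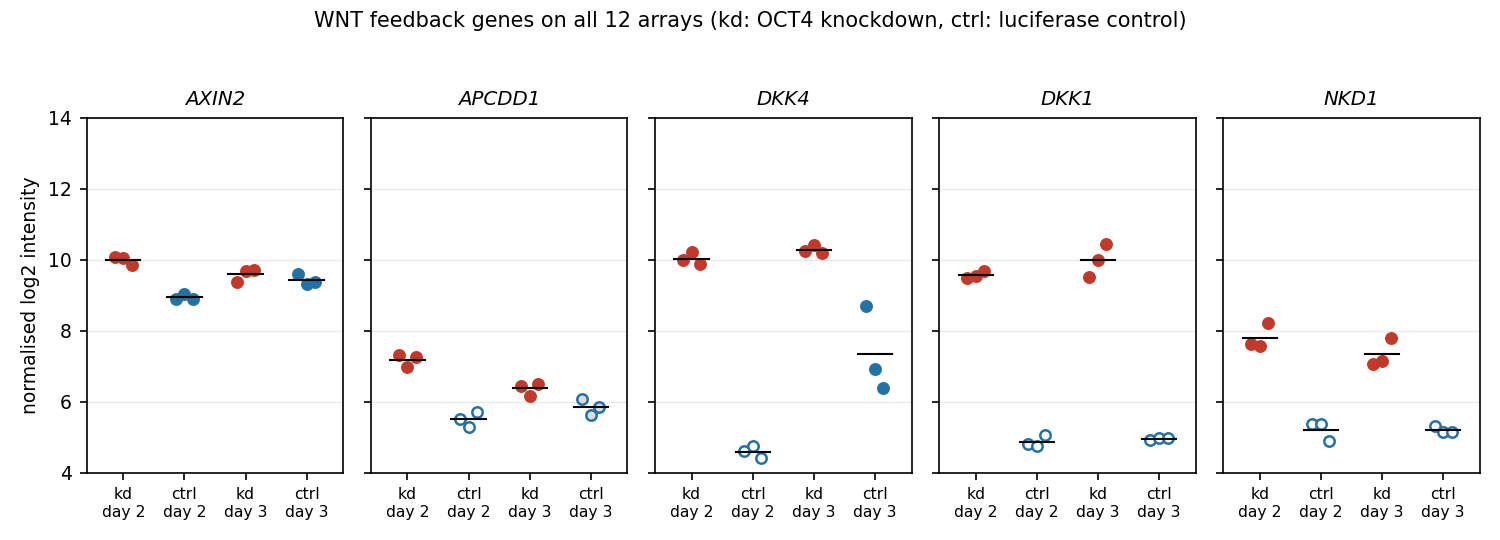
Normalised log2 intensity (vertical axis) of 5 WNT feedback genes on all 12 arrays, with knockdown arrays in red left of control arrays in blue for day 2 and then day 3. Filled points mark probes detected on all 3 arrays of the group, grey fill marks detection on 1 or 2 and open points on none, and lines are means. The gap of AXIN2 and APCDD1 is smaller at day 3, DKK4 is detected in control arrays of day 3, and DKK1 and NKD1 stay undetected in control arrays on both days.

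The other genes of this set include GJA4, the gap junction protein connexin 37, the 1 gene called in opposite directions. At day 2 it was at 5.07, 5.22 and 5.44 in knockdown arrays, all undetected, against 6.24, 5.88 and 5.95 in control arrays (at least 1.11-fold lower, adjusted p = 0.0042). At day 3 it was at 7.09, 7.12 and 7.14 in knockdown arrays, against 6.2, 6.14 and 6.48 in control arrays (0.84, adjusted p = 0.000783). The difference of 1.62 (adjusted p = 0.000801) was called in all 21 alternatives. LRP4, a WNT and agrin co-receptor, was at 0.67 at day 2 (SE 0.13, adjusted p = 0.00591) and at -0.30 at day 3 without passing. MARS2, the mitochondrial methionyl-tRNA synthetase, stood at 9.33, 9.12 and 9.10 in knockdown arrays and at 8.07, 8.36 and 8.18 in control arrays of day 2 (0.98, SE 0.14, adjusted p = 0.000526), and its change at day 3 was -0.05. FERMT1, an integrin activator, RHBDL3, a rhomboid protein, TIAM1, a RAC exchange factor, and STARD8 were at 0.69, 0.92, 0.77 and 1.02 at day 2 and did not pass at day 3. LMCD1, a LIM protein, was at -0.61 at day 2 and at 0.18 at day 3. The differences between days of LMCD1 and TIAM1 were called in 7 of 21 alternatives and that of STARD8 in 11. Those of FERMT1, LRP4, MARS2, RHBDL3 and OR52A1 were called in 18 to 21. Without the replicate 3 arrays those of FERMT1, LRP4, MARS2, LMCD1 and TIAM1 were lost (limma adjusted p = 0.0611 to 0.142). OR52A1, an olfactory receptor gene, was undetected in control arrays at day 2, and its knockdown level was at least 1.88-fold above (adjusted p = 7.29e-05). At day 3 all 3 control arrays detected it, and the groups did not differ past the threshold (0.08, adjusted p = 0.765).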

How the data were processed

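Total RNA of 12 samples was hybridised to Illumina bead arrays. The deposited file holds a linear intensity per probe and array, with no background step or normalisation recorded. Beside each intensity the authors deposited a detection p-value, which moves in steps of 1 in 759. A deposited table of log2 values, used as an alternative, equals the log2 intensity less a term per array and per probe, with column medians between -0.0146 and 0.0136, and its making is not given in the sources used here. No column belonged to other samples (0).

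Intensities were background-corrected, quantile normalised and put on the log2 scale by the neqc function (limma 3.58.1, R 4.3.3, offset 16). A probe was kept if 3 or more of the 12 arrays detected it at p under 0.01 (15407 of 48803). Of all probes, 28098 had 1 gene symbol, 13 several and 20692 none, and 28059 matched RefSeq by Entrez number. The brightest kept probe of each gene gave 10506 genes. A limma model with 4 group means over all 12 arrays (8 residual and 5.2 prior degrees of freedom) was tested with Benjamini-Hochberg adjustment over all genes at 0.05. The scripts were tested on simulated data.

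A gene undetected on all arrays of 1 group has only a bound: each array of the undetected group entered at its lowest detected level, or at the probe's value where that was greater, and their mean was set against the mean of the detected group. Named genes were POU5F1, the 15 largest rises and falls detected in both groups without overlap, the 10 and 5 highest bounds among genes switched on and off, up to 4 called members per list and direction, a few lineage genes, and the 6 largest differences between days in each direction. MSX2, GATA4, DLX5, SLC40A1, BMP4 and the 12 genes with smaller or turned changes were chosen after their values were seen. The members and lists were chosen with earlier results of these data known. Same-numbered replicates of day 2 correlated in their deviations at 0.022, 0.398 and 0.701. The replicate 3 arrays thus shared a deviation across groups, which the main model leaves in the spread, but replicate 1 did not. The numbers were not taken to pair the samples, and a block by replicate number was run as an alternative. Alternatives were another offset, median scaling, the authors' values, other filters, other models and leaving out arrays. Leaving out the replicate 3 arrays and a stricter switch rule were added after seeing the data.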

Additional observations from a re-analysis of the deposited data

Results flagged for a closer look

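For the following genes the change at day 3 differed from that at day 2 by the limma test of the difference. Values are the day 3 change minus the day 2 change on the log2 scale. They are fitted values, and not folds where a gene was undetected in a group on either day. Among WNT and BMP genes these were WLS (1.72), TNFRSF19 (1.14), DKK4 (-2.48), APCDD1 (-1.15), AXIN2 (-0.89), BMP2 (1.91) and MSX1 (1.05). Among lineage and signalling genes they were SOX17 (3.48), FLRT3 (2.02), HAND1 (3.23), CDH2 (0.91), FGF17 (2.82), IER3 (1.65) and EPSTI1 (1.96). Among matrix and epithelial genes they were HAPLN1 (2.20), COL5A1 (1.47) and KRT19 (1.17), with the kinase ALPK2 at 2.72. Among pluripotency genes OTX2 was at 1.16, VSNL1 at -1.14, NANOG at -1.31 and DPPA5 at -2.11.

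The genes taken for the size of the difference were CCKBR (4.14), CCDC81 (3.57), GRP (3.49) and CCL2 (2.88), and in the other direction FGF19 (-2.11), TIMP4 (-1.76), CLC (-1.68) and GRM4 (-1.65). Those whose day 2 change was smaller or turned at day 3 were also FERMT1 (-0.99), GJA4 (1.62), LMCD1 (0.79), LRP4 (-0.97), MARS2 (-1.03), OR52A1 (-1.49), RHBDL3 (-1.15), STARD8 (-1.63) and TIAM1 (-0.72).

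Of the 2060 kept probes with no gene symbol here, 21 were switched on at day 2, against 6 between the control arrays of day 3 and day 2.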

How the results depend on the processing

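POU5F1 stayed between -2.39 and -2.05 over all alternatives. Leaving out 1 array at a time gave 415 to 624 higher genes, 183 to 333 lower genes, 328 to 408 genes changed at least 2-fold, 97 to 129 called list members and 154 to 259 genes that differed between days (154 without knockdown day 3 replicate 1). It gave 81 to 174 genes switched on and 33 to 77 switched off. With the replicate block 983 genes were higher, 832 lower and 756 differed between days, and all 598 and 312 genes were among them. The numbers were not shown to pair the samples. The authors' log2 values gave 233 genes changed at least 2-fold. Counting detection on 2 or 3 arrays gave 188 genes on and 77 off, a detection p under 0.05 gave 57 off, and leaving out replicate 3 of both groups gave 79 off. The share of higher genes among called ones was 65.7%, 54.2% with the block and 71.4% with median scaling. The uncalled day 2 change of CCKBR ran between -0.28 and 0.08, of GRP between -0.01 and 0.13 and of DPPA5 between -0.33 and 0.11 when 1 array was left out. CCKBR turned positive without knockdown or control replicate 1, GRP negative without knockdown replicate 3 or control replicate 2, and DPPA5 positive without knockdown replicate 1 (0.01) or 3 (0.05) or control replicate 2. The cause was not tested. With 3 arrays a group and many probes near background, genes below the detection level could not be compared.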
